A study of Homo sapiens with 14 samples.

Results

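Genes of the secreted layer of WNT signalling were followed through every group of the series. The 5 ligands WNT2, WNT2B, WNT5A, WNT5B and WNT16 and the 4 secreted antagonists SFRP1, DKK1, DKK2 and DKK3 were taken by name, 9 of the 76329 gene symbols listed in any table. WNT16 was listed because of its fall after HMGB2 knockdown, so its values in that comparison are a description and carry no test. The other names come from the same families and were chosen with earlier results of these data known.

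WNT proteins are secreted, lipid-modified glycoproteins that signal between neighbouring cells through Frizzled receptors. With LRP5 or LRP6 as co-receptor they stabilize beta-catenin, and with ROR or RYK receptors they act on cell polarity and calcium. SFRP proteins bind the ligands themselves, whereas Dickkopf (DKK) proteins such as DKK1 and DKK2 block the LRP co-receptors, and DKK3 is a divergent member of that family. In the developing lung, WNT2 and WNT2B come from the mesenchyme and help to specify the organ, and WNT5A is a ligand of the polarity branch.

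Poly(A) RNA was sequenced from IMR90, a fetal human lung fibroblast line. I79 young, I79 old, I10 young and I10 old are 2 isolates of the line at an early and a late stage of serial passaging, and each of these groups has 1 table of estimated counts although its titles list 2 replicates, so it has no spread of its own. I79 ICM (2 libraries) was treated with inflachromene, a small molecule that binds HMGB1 and HMGB2. WT (2 libraries) and HMGB2 KD (2 libraries) are cells without and with siRNA knockdown of HMGB2, a chromatin protein. For WT and HMGB2 KD, the labels give neither the isolate nor whether WT received a control siRNA, and nothing says that replicates were separate cultures, so p-values measure the spread between these libraries, which may be technical.

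Totals were 14598433 to 20055750 estimated counts in the young and old tables, 10971132 and 13290131 in I79 ICM, and 33561766 to 41168932 counts in WT and HMGB2 KD. CPM are counts scaled to an equal library total, after each total was adjusted by its TMM scaling factor. For I79 ICM, CPM were taken over the genes listed in all 3 kinds of table, without these factors. Marker sums of I79 ICM are therefore on another scale than those of the other columns. Its log2 ratio to I79 young has both on the I79 ICM scale. HMGB2 itself was at 27.1 and 27.3 CPM in WT against 3.22 and 3.64 CPM in HMGB2 KD, a log2 fold change of -2.99 (SE 0.16). Fibroblast markers stood far above epithelial and endothelial ones. The 10 fibroblast markers summed to 24070 to 45620 CPM in the WT, HMGB2 KD, young and old columns and to 14380 and 14660 CPM in I79 ICM. In any of these, 6 epithelial markers summed to at most 0.941 CPM and 5 endothelial markers to at most 7.11 CPM. In I79 ICM the median log2 ratio of the 10 fibroblast markers to I79 young was -1.54, beside -0.01 over all genes, without a test. In HMGB2 KD, edgeR called 4 of the fibroblast markers higher and 1 lower (DESeq2 3 and 2), and in old cells 1 higher and 0 lower (DESeq2 3 and 3, and 5 and 3 at an unadjusted p under 0.05). Over all genes tested, edgeR called 2.86% higher and 2.34% lower in HMGB2 KD, and 5.75% and 3.82% in old cells. Summed over 5 proliferation markers, the young tables stood at 765.6 and 854.4 CPM, the old tables at 112.9 and 230.7 CPM, WT and HMGB2 KD at 153.2 to 162.1 CPM and I79 ICM at 18.5 and 16.2 CPM. All 5 were called lower in old cells, and their part in the changes with age given here was not tested.

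WNT16 is shown in sequence first because it made the widest swings of the 9 genes. It lies on chromosome 7 (GRCh37, 120965421 to 120981158, plus strand) and overlaps no other annotated gene. The 250 bases before the start of transcript WNT16-201, which held nearly all WNT16 reads, are given with the CCAAT motif in capitals.
WNT16 promoter, chr7:120968804-120969053, plus strand: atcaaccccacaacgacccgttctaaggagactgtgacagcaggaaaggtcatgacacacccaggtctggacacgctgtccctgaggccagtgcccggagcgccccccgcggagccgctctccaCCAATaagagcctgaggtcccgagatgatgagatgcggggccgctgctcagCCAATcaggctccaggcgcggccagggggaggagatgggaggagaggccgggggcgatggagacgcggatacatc
WNT16-201 and WNT16-202 have 1095 and 1065 coding bases and share the last 1000 of them. Their beginnings differ, over 95 bases of WNT16-201 and 65 bases of WNT16-202. The first 90 of each are given 5′ to 3′ with the start codon in capitals. The end of the WNT16-202 stretch is shared sequence, which WNT16-201 has past its own printed stretch.
WNT16-201: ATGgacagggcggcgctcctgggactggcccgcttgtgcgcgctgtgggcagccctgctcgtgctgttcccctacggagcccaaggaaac
WNT16-202: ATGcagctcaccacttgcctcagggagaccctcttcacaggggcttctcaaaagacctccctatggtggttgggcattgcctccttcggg
The other windows printed belong to DKK1 and WNT5B, which also rose in old cells, and the capitals mark TATAAA on either strand. DKK1 lies on chromosome 10 (54074041 to 54077802) and WNT5B on chromosome 12 (1639057 to 1756378), both on the plus strand.
DKK1 promoter, chr10:54073791-54074040: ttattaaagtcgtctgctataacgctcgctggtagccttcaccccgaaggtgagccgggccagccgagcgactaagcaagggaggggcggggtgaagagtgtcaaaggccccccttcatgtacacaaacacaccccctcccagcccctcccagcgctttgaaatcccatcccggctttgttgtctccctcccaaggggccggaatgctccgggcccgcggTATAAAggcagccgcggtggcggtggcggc
WNT5B promoter before WNT5B-201, chr12:1725972-1726221: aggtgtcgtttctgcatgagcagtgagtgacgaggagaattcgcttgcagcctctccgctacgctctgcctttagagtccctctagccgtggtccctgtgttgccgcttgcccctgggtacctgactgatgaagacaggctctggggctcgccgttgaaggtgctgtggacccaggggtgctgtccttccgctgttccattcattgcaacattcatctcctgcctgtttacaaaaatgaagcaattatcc
WNT5B promoter before WNT5B-202, chr12:1738147-1738396: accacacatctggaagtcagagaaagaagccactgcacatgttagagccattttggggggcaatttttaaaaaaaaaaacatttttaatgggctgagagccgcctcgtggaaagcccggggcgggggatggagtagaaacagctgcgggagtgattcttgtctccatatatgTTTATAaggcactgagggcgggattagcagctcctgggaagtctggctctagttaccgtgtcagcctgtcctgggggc
The windows come from RefSeq (GRCh38.p14), were placed on GRCh37 by exact match, and were searched with 50 further bases after the start.

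Over 35116 RefSeq promoter windows of the same length, and counting both strands, CCAAT was found in 34.6%, TATAAA in 11.5%, the AP-1 motif TGAGTCA in 4.95% and the TCF/LEF motif CTTTGAT in 2.62%. CCAAT was searched only after these windows had been seen. It matched the windows of WNT2, WNT16 and the downstream start of WNT2B, and TATAAA matched DKK1 and the downstream start of WNT5B. Neither TGAGTCA nor CTTTGAT was found in any window of WNT2, WNT2B, WNT5A, WNT5B, WNT16 or DKK1, and SFRP1, DKK2 and DKK3 have no entry. The windows do not cover every start in use. WNT2B-203, which held most WNT2B reads, and WNT5A-202 have no window at their start. The downstream start of WNT2B is that of WNT2B-202, which had 9.29 to 18 estimated counts in the young and old tables.

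Per length, the 9 genes spanned a wide range and kept much of their order across groups. DKK3 had the highest level of the 9 in every table, at 308 and 375.1 TPM (abundance scaled for transcript length and library total) in I79 young and I10 young and at 1304 and 1257 TPM in I79 old and I10 old. WNT5A was in the next place in both young tables (159.3 and 153.9 TPM), and SFRP1 in both old tables (401.7 and 334 TPM). DKK1 (29.9 and 32.5 TPM in young) came after SFRP1, and WNT2, WNT5B and WNT2B lay between 1.77 and 15.0 TPM in young cells. These levels sum all transcripts of a gene. DKK1-203, which has no defined coding sequence, held 48.2% and 44.4% of the DKK1 level in I79 and I10 young. WNT2-202, annotated for nonsense-mediated decay, held 54.8% and 53.3% of the WNT2 level there. WNT16, at 0.421 and 0.205 TPM, and DKK2, at 0.168 and 0.0252 TPM, were the lowest of the 9 in young cells, and with 1 table a group the spread between such neighbours is unknown.

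Cells of high passage carried more WNT ligand and more antagonist transcript than young cells in both isolates. In edgeR's quasi-likelihood test with the isolate as a term, 6 of the 8 members tested were called higher in old cells (adjusted p under 0.01 and a log2 fold change over 0.6) and 0 were called lower, beside 5.75% of all 15115 genes called higher and 3.82% called lower. All 8 fitted log2 fold changes were positive, 0 were lower at an unadjusted p under 0.05, and DESeq2 also called 6 higher and 0 lower. The members were chosen with earlier results of these data known, so their share of calls is a description. FRZB, a secreted antagonist outside the list, was called lower in old cells (log2 fold change -3.75). The genes called by edgeR were WNT2B, WNT5B, WNT16, SFRP1, DKK1 and DKK3, and each was past 0.6 within I79 and within I10, as were 14.1% of all genes. In bulk RNA, a change in the share of cells that express a gene and a change in RNA per cell cannot be told apart.

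WNT16, a ligand studied in bone and joint tissue and in senescent fibroblasts, moved the most of the 9 genes. Its estimated counts were 12 in I79 young and 741 in I79 old, and 7 in I10 young and 567 in I10 old, or 0.768, 40.2, 0.365 and 31.3 CPM. Both old tables lay far above both young tables, and the young values rest on few reads. The fold was 52.3 in I79 (95% counting interval 29.8 to 101.7) and 85.8 in I10 (41.4 to 214.4), and the joint log2 fold change was 6.00 (SE 0.24, edgeR adjusted p = 0.00324). Counting intervals here and further on cover counting error only. WNT16-201 held 12, 741, 7 and 531.7 of these counts, and WNT16-202 was read only in I10 old, with 35.3 estimated counts.

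WNT5B, a close relative of WNT5A, was at 13.6 CPM in I79 young and 52.9 CPM in I79 old, and at 14.7 and 77.2 CPM in I10. The isolates started from like levels and both rose, by a joint log2 fold change of 2.18 (SE 0.15, edgeR adjusted p = 0.00385). Its transcripts from both printed starts were higher in old cells, with WNT5B-201 at 168.4 and 749 estimated counts in I79 and 234.4 and 1194 in I10, and WNT5B-202 at 29.2 and 187.9 in I79 and 28.9 and 152.9 in I10. WNT2B, a lung mesenchymal ligand, rose to a like extent in both isolates, standing at 7.17 CPM (young) and 22.0 CPM (old) in I79 and at 5.58 and 17.1 CPM in I10 (log2 fold change 1.61, SE 0.16, edgeR adjusted p = 0.00552). Its call was lost when counts were rebuilt from TPM, at a log2 fold change of 1.10 and an adjusted p of 0.0223. Most WNT2B reads lay on the long transcript WNT2B-203, with 85.7 and 346.5 estimated counts in I79 and 65.4 and 248.4 in I10.

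WNT5A was by far the most abundant ligand and did not pass the test. It was at 412.7 and 474.8 CPM in I79 young and old and at 404 and 465 CPM in I10, so each old table was 1.15 times its young one (log2 fold change 0.20, SE 0.12, edgeR adjusted p = 0.244). With plain library totals, which shift the median of all genes by -0.22, the log2 fold change of WNT5A was -0.0085. WNT2 was at 13.7 CPM in I79 young and 35.9 CPM in I79 old, but at 19.1 and 18.7 CPM in I10. The I79 pair stood 2.62-fold apart (95% counting interval 2.24 to 3.07) and the I10 pair 0.979-fold (0.842 to 1.14), and the joint log2 fold change of 0.68 (SE 0.36) had an edgeR adjusted p of 0.206. Opposite signs in the isolates were seen in 19.1% of all genes, and 5.87% were at least 1.0 higher in I79 than in I10 on the log2 scale.

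**Figure D1:**
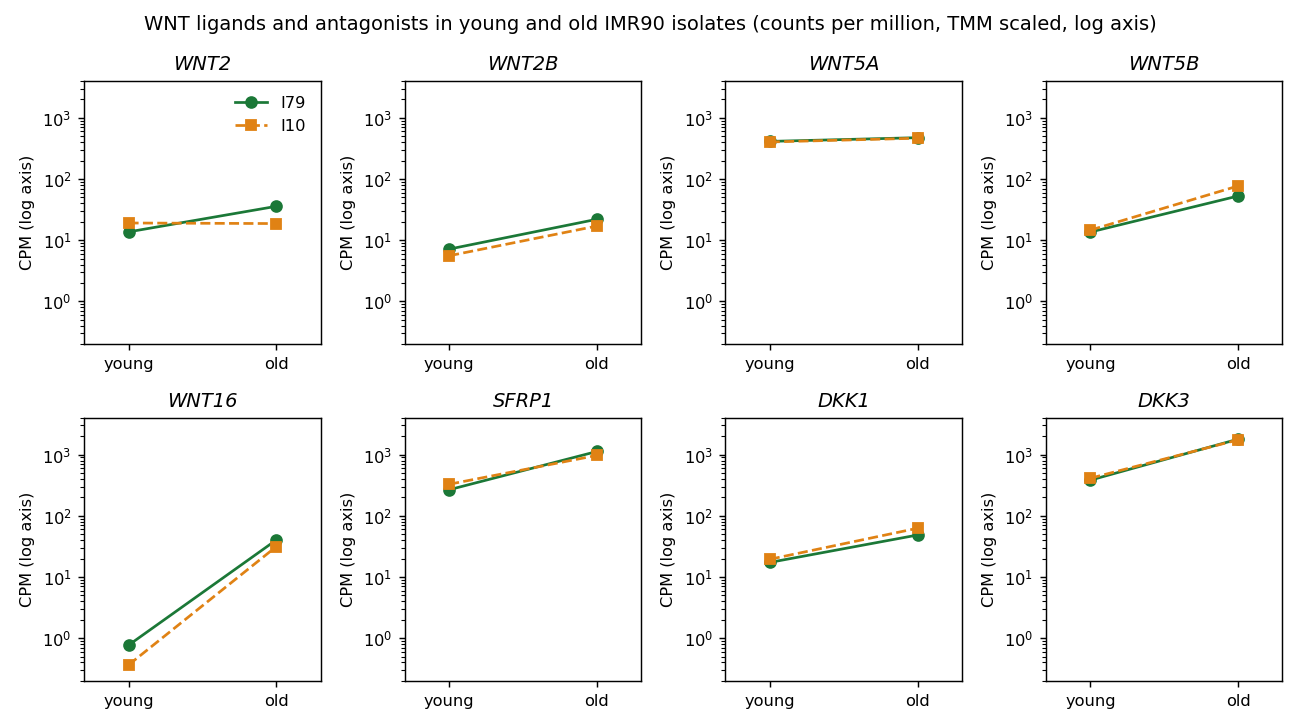
CPM (log axis) of 8 WNT ligands and antagonists in young and old cells of isolates I79 (circles, solid line) and I10 (squares, dashed line), 1 table per point and no error bar since each group has 1 table. WNT16 climbs from under 1 CPM to 40.2 and 31.3 CPM, WNT5A is nearly level, and WNT2 climbs in I79 while staying near 19 CPM in I10.

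Summed in TPM, the antagonists were more abundant than the ligands, and SFRP1, DKK1 and DKK3 rose in old cells. In young cells that order rested on DKK3, since the antagonists without it summed below the ligands. SFRP1, which binds WNT ligands outside the cell, was at 266.3 and 1124 CPM in I79 young and old and at 327.3 and 970.3 CPM in I10 (log2 fold change 1.82, SE 0.18, edgeR adjusted p = 0.00559). Its fold was 4.22 in I79 (95% counting interval 4.08 to 4.36) and 2.97 in I10 (2.88 to 3.05), so the isolates differed by more than counting error. DKK1, an inhibitor of the LRP co-receptors and itself a target of beta-catenin, was at 17.3 and 48.5 CPM in I79 and at 19.4 and 62.6 CPM in I10 (log2 fold change 1.59, SE 0.12, edgeR adjusted p = 0.00416). DKK3 was at 382.1 and 1788 CPM in I79 and at 410.8 and 1744 CPM in I10 (log2 fold change 2.16, SE 0.15, edgeR adjusted p = 0.00381). For DKK1 and DKK3, as for SFRP1, both old tables lay above both young ones. DKK2 had 2, 4, 1 and 6 estimated counts in I79 young, I79 old, I10 young and I10 old and was not tested.

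The make-up of the ligand pool differed between young and old cells. Summed over all 19 WNT ligands, the level was 187.3 TPM in I79 young and 257.4 TPM in I79 old, and 187.8 and 249.3 TPM in I10. WNT5A made up 85.0% of that sum in I79 young and 62.8% in I79 old (81.9% and 61.4% in I10), while WNT5B went from 6.98% to 16.9% (7.77% to 24.3%) and WNT16 from 0.225% to 7.79% (0.109% to 6.67%). The 4 antagonists summed to 444.5 and 1775 TPM in I79 and to 540.8 and 1678 TPM in I10, which is 2.37 and 6.90 times the ligand sum in I79 and 2.88 and 6.73 times in I10. DKK3 alone held 308 TPM of the antagonist sum in I79 young and 375.1 TPM in I10 young, and 1304 and 1257 TPM in I79 old and I10 old. Most of each antagonist sum and of its rise is therefore DKK3, the divergent member of the family. Without DKK3, the young antagonist sums lay below the ligand sums. The ligand sum covers all 19 ligands, whereas the antagonist sum leaves out antagonists such as FRZB and IGFBP4. These ratios compare transcript levels per length and say nothing of protein.

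**Figure D2:**
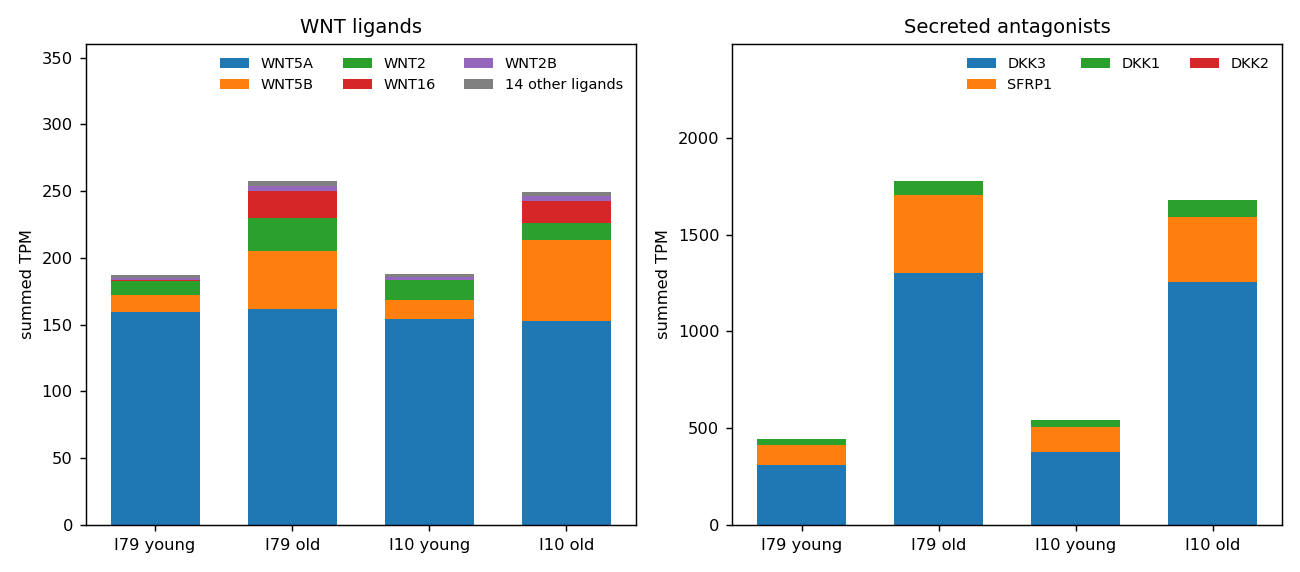
TPM of WNT ligands (left) and of the 4 secreted antagonists (right) in the 4 young and old tables, stacked by gene, with the 14 other WNT ligands together in grey. The WNT5A block stays near 150 to 160 TPM while the WNT5B and WNT16 blocks widen in old cells, and the antagonist bars reach 1775 and 1678 TPM.

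After knockdown of HMGB2, WNT16 was lower, WNT5B rose, and no other member passed the test. Of the 7 members tested besides WNT16, 1 (WNT5B) was called higher in HMGB2 KD by edgeR and 0 were called lower, beside 2.86% of all 15338 genes called higher and 2.34% called lower. At an unadjusted p under 0.05, WNT5A, WNT5B and DKK1 were higher and SFRP1 was lower, and DESeq2 called SFRP1 lower beside WNT5B. The libraries of the 2 groups did not overlap in 5 of the 7, and in 4 of these HMGB2 KD was the higher group, beside 53.8% and 27.4% of all genes.

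WNT16 had 1198 and 1090 counts in WT and 243 and 158 in HMGB2 KD. That is 35.0 and 29.2 CPM in WT (32.1 ± 4.10, SD, n = 2) and 6.64 and 3.96 CPM in HMGB2 KD (5.30 ± 1.89, SD, n = 2), with no overlap between the groups. The log2 fold change was -2.60 (SE 0.21), given as a description since this fall put the gene on the list. Set beside the young and old tables, which were counted in another way, WT was close to the old level of WNT16 and HMGB2 KD lay between the young and old levels. The proliferation markers of WT (153.2 and 162.1 CPM in sum) also lay nearer to the old tables than to the young ones, and their part in the WNT16 level was not tested.

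WNT5B was the one member called, at 26.2 and 27.7 CPM in WT against 42.0 and 59.4 CPM in HMGB2 KD. Both HMGB2 KD libraries lay above both WT libraries, but they also lay far apart from each other (26.9 ± 1.10 in WT and 50.7 ± 12.3 in HMGB2 KD, SD, n = 2). The log2 fold change was 0.91 (SE 0.16, edgeR adjusted p = 0.00238), and without HMGB2 KD replicate 2 it was 0.65 with an adjusted p of 0.0176, which is no longer a call. That fit takes its spread from the WT pair alone and assumes that the lone HMGB2 KD library varies alike. FBXL14 overlaps WNT5B on the other strand, as CFTR does WNT2, ST7L WNT2B, WNT5A-AS1 WNT5A, PRKG1-AS1 DKK1 and USP47 DKK3. Whether the counting used strand is not given in the sources used here, so reads of such partners cannot be told apart with certainty.

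WNT5A was at 961.3 and 970.8 CPM in WT against 1273 and 1139 CPM in HMGB2 KD, without overlap but short of the threshold (log2 fold change 0.32, SE 0.14, edgeR adjusted p = 0.189). WNT2, at 6.02 and 8.28 CPM in WT against 7.79 and 7.37 CPM in HMGB2 KD, and WNT2B, at 2.40 and 3.64 CPM against 2.32 and 3.14 CPM, overlapped between the groups. Their log2 fold changes were 0.08 (SE 0.21, edgeR adjusted p = 0.865) and -0.15 (SE 0.31, edgeR adjusted p = 0.839).

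SFRP1 was at 313.5 and 389.3 CPM in WT against 234.7 and 227.8 CPM in HMGB2 KD. It was the one member besides WNT16 whose HMGB2 KD libraries both lay below WT. The log2 fold change of -0.60 (SE 0.15) had an edgeR adjusted p of 0.0160, so SFRP1 was not called, although it passed with 4 other ways of fitting the same counts. DKK1 was at 65.5 and 63.1 CPM in WT against 83.7 and 78.0 CPM in HMGB2 KD (log2 fold change 0.33, SE 0.12, edgeR adjusted p = 0.108). DKK3 was at 932.8 and 1013 CPM in WT against 1101 and 1255 CPM in HMGB2 KD (log2 fold change 0.28, SE 0.15, edgeR adjusted p = 0.279). Neither DKK gene overlapped between the groups, and neither passed the test. DKK2 had 0 counts in all 4 libraries, which allows at most 0.0729 to 0.0894 CPM per library (3 counts of the total, counting error only).

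**Figure D3:**
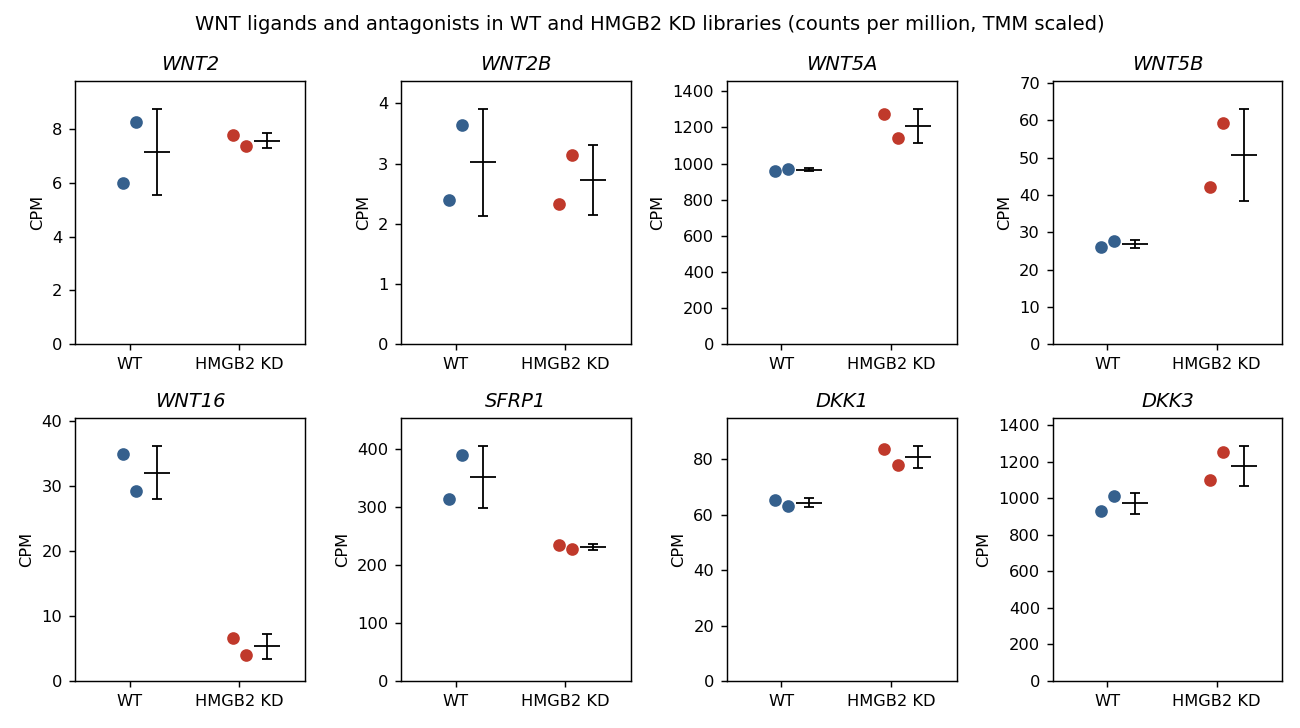
CPM of 8 WNT ligands and antagonists in the 2 WT (blue) and 2 HMGB2 KD (red) libraries, with the mean and SD (n = 2) in black beside each pair and every axis starting at 0. WNT16 drops from 35.0 and 29.2 CPM to 6.64 and 3.96 CPM, WNT5B and SFRP1 part in opposite directions, and WNT2 and WNT2B overlap.

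Smooth muscle markers moved with the knockdown too. Summed over ACTA2, MYH11, DES, CNN1 and ACTG2, WT was at 190.2 and 359.6 CPM and HMGB2 KD at 788.8 and 1028 CPM. All 3 of those tested were called higher by edgeR (2 by DESeq2), beside 2.86% of all genes. In the young and old tables, which were counted in another way, the same sum was 1081 and 630.8 CPM in I79 and 804.9 and 1082 CPM in I10. MYH11 had 0 counts in every WT and HMGB2 KD library but was read in both young tables, so the sums stand side by side only. The part of this shift in the WNT5B and SFRP1 values was not tested. Of 5 immune markers, CD68 alone was read in number in the young and old tables, at 21.4 and 157.8 CPM in I79 and at 23.2 and 84.5 CPM in I10, and was called higher in old cells. PTPRC, CD14, CD3E and LYZ had 0 to 4 estimated counts in each of these tables and were not tested. The part of CD68 in the members' values was not tested.

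The ICM libraries were counted per gene region and have no control counted in the same way, so they give ratios to I79 young without a test. CPM here is taken over the genes listed in all 3 kinds of table, without the scaling factors used above. Of 14982 such genes with at least 10 reads in 2 libraries, 30.5% were more than 0.6 above I79 young on the log2 scale and 30.4% more than 0.6 below it, and even WT stood that far from I79 young in 21.3% and 23.9% of them. Of the 8 members other than DKK2, 3 lay above and 2 below in I79 ICM, beside 5 above and 2 below in WT. The members' counts in I79 ICM are near the shares of all genes, and 5 of 8 above I79 young in WT is a larger share than the 21.3% of all genes. WNT16 is among these 5 and was listed for its fall from WT, so a high WT value goes with its listing. WT was also counted in another way than I79 young, so the share in WT is a description only.

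WNT5B stood at 41.3 and 37.8 CPM in I79 ICM and 15.5 CPM in I79 young (log2 ratio 1.34), DKK1 at 65.2 and 67.3 CPM against 19.7 CPM (1.75), and WNT16 at 5.20 and 4.42 CPM against 0.876 CPM (2.34). The WNT16 value rests on 67 and 47 reads and is far from the old level. WT gave log2 ratios to I79 young of 0.91 for WNT5B, 1.82 for DKK1 and 5.18 for WNT16. SFRP1 was at 81.0 and 78.95 CPM in I79 ICM against 303.6 CPM in I79 young (-1.92, WT 0.32), and WNT2 at 1.94 and 2.73 CPM against 15.6 CPM (-2.72, WT -1.02). These were the 2 members below I79 young in ICM.

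WNT5A (548 and 525.8 CPM against 470.4, log2 ratio 0.19), WNT2B (11.8 and 12.7 against 8.17, 0.58) and DKK3 (604.6 and 636.7 against 435.5, 0.51) stayed within 0.6 of I79 young. DKK2 had 3 and 4 reads. The regions behind these reads differed between genes, with 84.2% and 89.6% of WNT2B reads and 75.7% and 76.6% of SFRP1 reads in the 3′ UTR, beside 25.3% and 24.2% over all genes. In DKK1, 71.8% and 75.9% of reads were coding, and in WNT16 64.2% and 70.2%. With coding and noncoding reads only in I79 ICM, and all reads kept in I79 young, the log2 ratio was -2.15 for WNT2B and -0.76 for WNT5A. The coding share was 12.5% and 6.66% in WNT2B and 32.0% and 33.6% in WNT5A, beside 61.1% and 61.95% over all genes. A gene with a lower coding share than all genes is lowered by this step, so these values give no direction of change.

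**Figure D4:**
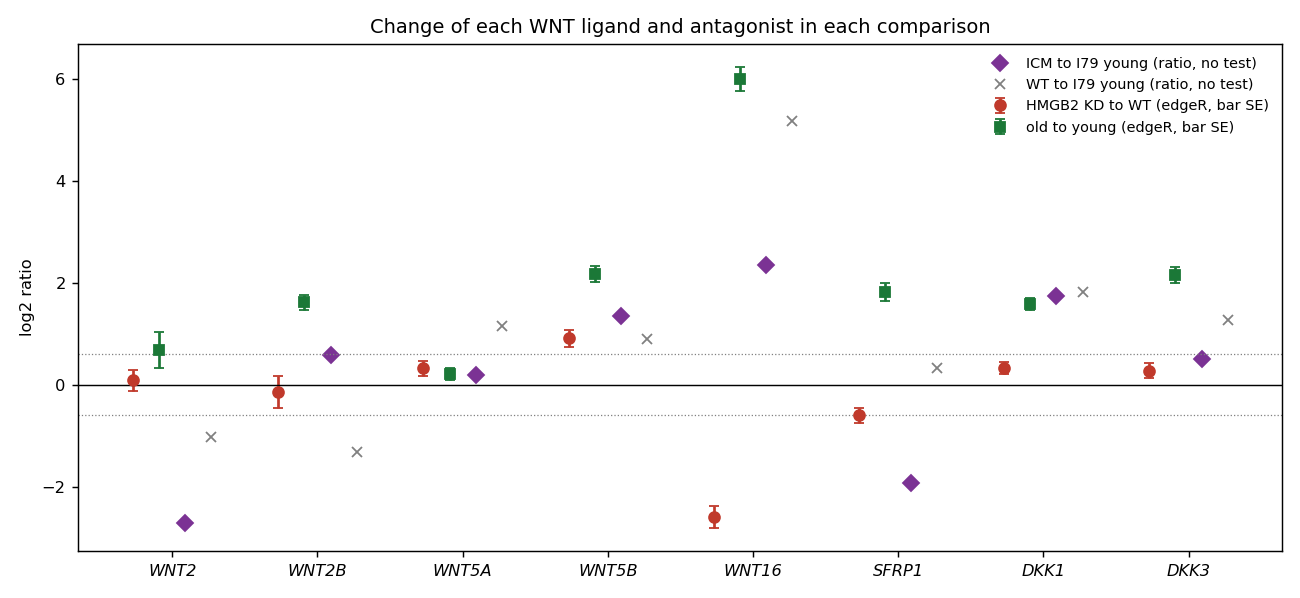
Log2 ratios of 8 WNT ligands and antagonists for HMGB2 KD to WT (circles) and old to young (squares), both with an SE worked out from the edgeR F statistic. I79 ICM (diamonds) and WT (crosses) to I79 young are ratios without error. Dotted lines mark 0.6 either way, and WNT16 lies at 6.00 for old cells and -2.60 for the knockdown.

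Among the other WNT ligands, 7 of 14 reached 10 counts in at least 1 of the 10 tables and libraries, and 7 stayed below 10 in each. WNT9A, at 5 and 50 estimated counts in I79 young and old and at 11 and 52 in I10, was not called (log2 fold change 2.63, SE 0.44, edgeR adjusted p = 0.0152), and edgeR called 0 of the 2 tested in old cells (1 at an unadjusted p under 0.05, 0 by DESeq2) and 0 of the 4 tested in HMGB2 KD (0 and 0). In HMGB2 KD the largest value was again that of WNT9A (log2 fold change 1.07, edgeR adjusted p = 0.319). WNT3 had 39 to 67 estimated counts in the young and old tables and 68 and 47 in I79 ICM, but 0 to 2 counts in WT and HMGB2 KD. The co-receptor gene LRP6 had 790 to 1323 estimated counts in the young and old tables and at most 13 counts in a WT or HMGB2 KD library. Both genes were singled out after their values were seen.

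Of the remaining secreted antagonists, FRZB, an SFRP family member, fell in old cells, at 11.2 CPM (young) and 0.868 CPM (old) in I79 and at 19.4 and 1.38 CPM in I10 (log2 fold change -3.75, SE 0.22, edgeR adjusted p = 0.00346). FRZB moved opposite to SFRP1. The other antagonist tested, IGFBP4, a secreted IGF-binding protein, was at 1719 and 4068 CPM in I79 and at 1637 and 2895 CPM in I10 and was not called by edgeR (log2 fold change 1.03, SE 0.20, adjusted p = 0.0209), but was called higher by DESeq2. The R-spondin gene RSPO3, whose product raises Frizzled levels at the membrane, was at 2.24 CPM in I79 young and 2.35 CPM in I10 young, but had 1 estimated count in each old table. Its ratio of old to young was 0.0242 in I79 (95% counting interval 0.000596 to 0.144) and 0.0236 in I10 (0.000583 to 0.138). The fitted log2 fold change of -5.22 (SE 0.59, edgeR adjusted p = 0.00689) depends on the prior count at such reads, and RSPO3 was the 1 called of 3 secretion and R-spondin genes. In HMGB2 KD, edgeR called 0 of 3 antagonists (1 at an unadjusted p under 0.05, 0 by DESeq2), NOTUM having the largest value (log2 fold change 1.94, adjusted p = 0.145). It also called 0 of 3 secretion and R-spondin genes (1 and 0), RSPO2 having the largest value (-0.83, adjusted p = 0.578).

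Of 17 receptor and co-receptor genes tested in each comparison, the Frizzled gene FZD6 was called higher and the WNT5A receptor gene ROR2 lower in old cells. FZD6 was at 78.0 and 264.8 CPM in I79 and at 74.4 and 185.6 CPM in I10 (log2 fold change 1.54, SE 0.15, edgeR adjusted p = 0.00531). ROR2 was at 65.6 and 13.1 CPM in I79 and at 52.7 and 18.4 CPM in I10 (log2 fold change -1.92, SE 0.22, edgeR adjusted p = 0.00717). In HMGB2 KD the 1 call was FZD8, higher, at 7.42 and 7.05 CPM in WT against 22.5 and 39.7 CPM in HMGB2 KD (log2 fold change 2.10, SE 0.22, edgeR adjusted p = 7.0e-05). As for WNT5B, the HMGB2 KD libraries of FZD8 lay far apart from each other.

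Of 18 intracellular beta-catenin pathway genes, DVL1, which relays the Frizzled signal, was called higher in old cells (log2 fold change 1.14, SE 0.12, edgeR adjusted p = 0.00639). At an unadjusted p under 0.05, 3 of them were higher and 4 lower in old cells, and DESeq2 called BCL9 lower (log2 fold change -1.27, edgeR adjusted p = 0.0131) beside DVL1 higher. In HMGB2 KD, 0 were called by edgeR (3 at an unadjusted p under 0.05, 0 by DESeq2), and CTNNBIP1 had the largest value (0.50, adjusted p = 0.0439). Among the beta-catenin target genes other than DKK1, the cyclin gene CCND1 was the 1 of 9 called by edgeR in old cells, at 207.1 and 1116 CPM in I79 and at 249.6 and 1662 CPM in I10 (log2 fold change 2.58, SE 0.16, edgeR adjusted p = 0.00357). AXIN2, a target often used to read the pathway, was at 3.97 and 1.68 CPM in I79 and at 2.76 and 1.603 CPM in I10 and did not pass (log2 fold change -1.01, edgeR adjusted p = 0.0764). It is named here as the usual readout and was not picked by the naming rule. At an unadjusted p under 0.05, 2 target genes were higher and 5 lower in old cells, the median log2 fold change of the list was -0.64, and DESeq2 called CCND1 higher and TNFRSF19 lower (log2 fold change -0.64, edgeR adjusted p = 0.0190). In HMGB2 KD the 1 of 11 called by edgeR was the morphogen gene BMP4, lower, at 48.8 and 47.3 CPM in WT against 23.8 and 20.0 CPM in HMGB2 KD (log2 fold change -1.13, SE 0.14, edgeR adjusted p = 0.000202). There 1 target gene was higher and 4 lower at an unadjusted p under 0.05, and DESeq2 called TNFRSF19 (edgeR log2 fold change -0.63, adjusted p = 0.0110) lower beside BMP4.

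In the polarity and calcium branch, 3 of 15 genes were called higher in old cells (PRICKLE1, FZD6 and CAMK2D, with log2 fold changes of 2.28, 1.54 and 0.91) and 2 lower (VANGL2 and ROR2, with -2.86 and -1.92), FZD6 and ROR2 being counted in the receptor list too. DESeq2 also called DAAM1 lower (log2 fold change -1.09, edgeR adjusted p = 0.0165). PRICKLE1 and VANGL2 encode core polarity proteins, and VANGL2 was at 20.7 and 1.74 CPM in I79 and at 23.2 and 4.70 CPM in I10. In HMGB2 KD, 1 of 16 was called, the calcium-regulated factor gene NFATC2, higher (log2 fold change 1.09, SE 0.19, edgeR adjusted p = 0.00183). BCL9, TNFRSF19, IGFBP4 and DAAM1 fall outside the naming rule and were named after their values were seen. The median log2 fold change over all tested genes was -0.01 in old cells and 0.00184 in HMGB2 KD. Of all tested genes, edgeR called 5.75% higher and 3.82% lower in old cells, and 2.86% and 2.34% in HMGB2 KD. These shares apply beside the counts of each pathway list. Lists with few tested genes give these counts little weight.

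**Figure D5:**
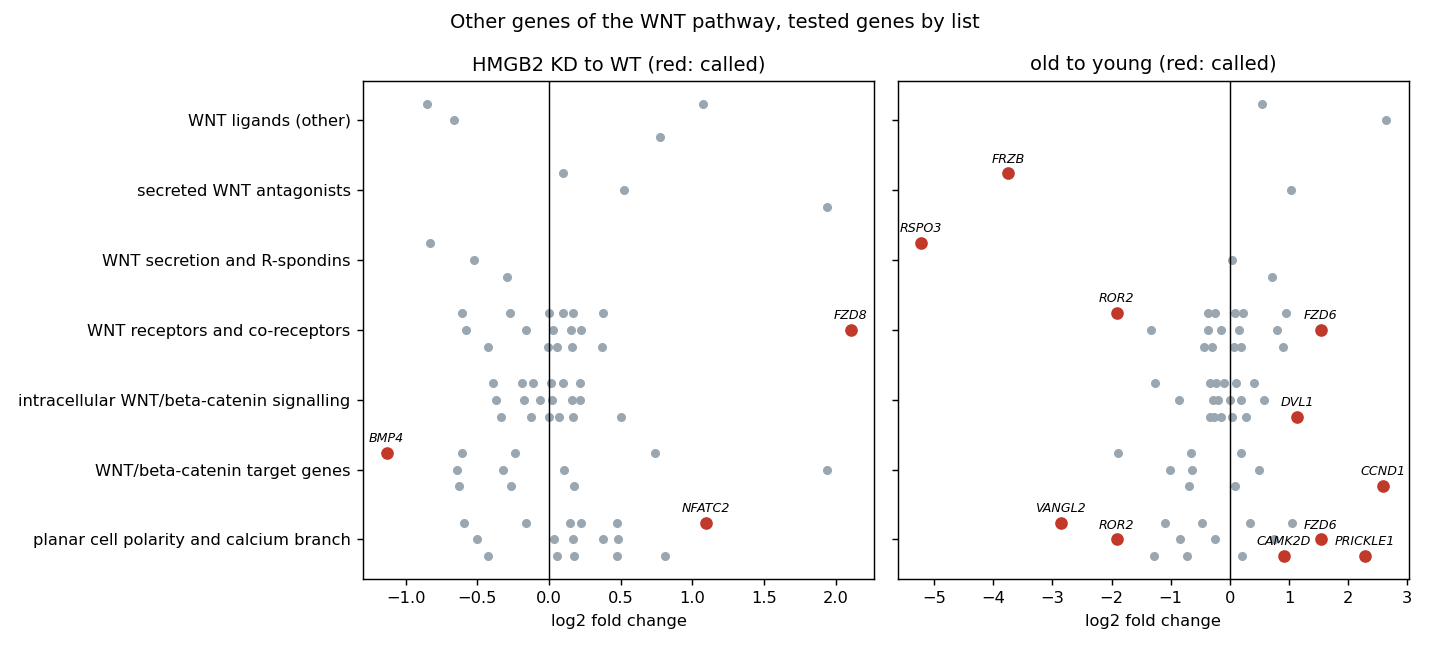
Log2 fold changes (edgeR) of the tested genes of 7 WNT pathway lists, without the 9 members, in HMGB2 KD to WT (left) and old to young (right), with called genes in red and named. The 3 calls in HMGB2 KD are FZD8, NFATC2 and BMP4, and in old cells RSPO3 lies farthest out at -5.22.

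Genes whose pattern was most like that of each member were found by Pearson's r of log2 CPM over the 8 WT, HMGB2 KD, young and old columns, centred within each kind of table, among 12775 genes. For WNT16 they were DENND2A (r = 0.994), CEACAM19 (0.993) and AVPI1 (0.992). DENND2A, for example, was at 38.3 and 191.3 CPM in I79 young and old, at 31.2 and 159.8 CPM in I10, and at 87.1 and 83.6 CPM in WT against 53.2 and 45.4 CPM in HMGB2 KD. For the other members tested in both comparisons the closest genes were PEA15 for WNT5B (0.995), TRPC1 for WNT2B (0.993), TIAM2 for WNT5A (0.985), BTBD19 for WNT2 (0.968), NEDD4 for SFRP1 (0.995), SBDSP1 for DKK1 (0.996) and PHF1 for DKK3 (0.998). The columns share sources and depth within each kind of table, so these values are descriptions. The old to young step weighs most in r except for WNT5A and WNT2. The log2 fold change of WNT5A was 0.20 in old cells and 0.32 in HMGB2 KD. WNT2 rose in I79 alone (1.38, against -0.03 in I10), so its r leans on the I79 pair.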

How the data were processed

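Members and lists were chosen with earlier results of these data known. Reads were aligned to GRCh37 with STAR 2.6.0c and counted with featureCounts per the submitters' processing notes; the tool behind the transcript and region tables and the use of strand are not given in the sources used here. The authors deposited counts per gene for WT and HMGB2 KD, estimated counts and TPM per transcript for young and old cells (97.7% of identifiers matched GENCODE v44lift37), and estimated counts per gene region for ICM. Estimated counts were summed per gene and rounded. Summary rows (16.9 to 18.0% of WT and HMGB2 KD totals) were left out. Tests used edgeR 4.0.16 (R 4.3.3; TMM, filterByExpr, Benjamini-Hochberg over all genes; called at adjusted p under 0.01 and log2 fold change over 0.6 either way), with the isolate as a term for old against young, which left 1 residual degree of freedom. Each SE is the absolute log2 fold change divided by the square root of the F statistic of the edgeR test. ICM ratios are log2 CPM over 24638 shared genes with a prior count of 2. In simulations that shifted 200 genes by 1.5 (log2), the tests recovered 79% (15001 genes, knockdown) and 76.5% (14789 genes, age), with 0 and 4 false calls. Alternatives included DESeq2 1.42.0, other scalings, no filter and left-out libraries. Within WT and within HMGB2 KD, library pairs differed by more than sampling noise. Named pathway genes are the called ones with the 3 largest rises and falls in a list or, with none called, the gene with the largest change.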

Additional observations from a re-analysis of the deposited data

Results flagged for a closer look

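WNT2 moved differently with age in the 2 isolates. Its log2 ratio of old to young was 1.38 in I79 and -0.03 in I10, a difference of 1.41 between the isolates. With 1 table per group the difference was not tested.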

How the results depend on the processing

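Tested members kept their direction and their side of the threshold in 67 (HMGB2 KD) and 53 (old cells) alternative values. Without a test, 10 WNT16 values in HMGB2 KD and 15 single-isolate values kept their direction, and 39 ICM values moved by less than the replicate spread. The HMGB2 KD member count was 2 instead of 1 with plain library totals, DESeq2, no filter, 1 RUVs factor or an adjusted p under 0.05, SFRP1 (edgeR adjusted p 0.0160) being the addition. Leaving out 1 library gave 0 to 2 members (0 without HMGB2 KD replicate 2, 2 without WT replicate 1) and 312 to 999 genes against 797. The replicate block gave 1243 genes and 1 member. WT and HMGB2 KD share only replicate numbers (correlation of deviations 0.124, 2 pairs). Plain totals turned the split of calls in HMGB2 KD from 438 higher and 359 lower to 385 and 484, and in old cells from 869 and 578 to 1020 and 2112, shifting the median of all genes by -0.22. Genes called in old cells numbered 1447, but 3132 with plain totals, 4265 without the filter and 3860 at an adjusted p under 0.05, with 5 to 7 members called. WNT2 passed without the filter (0.66). Directions turned in HMGB2 KD for WNT2 (-0.13 without WT replicate 1, range to 0.33) and WNT2B (0.18 without WT replicate 2, 0.043 without HMGB2 KD replicate 1, range from -0.42), and in old cells for WNT5A (-0.0085, plain totals) and WNT2 (-0.031 in I10 alone, 1.38 in I79 alone). In ICM, the members under -0.6 were 4 rather than 2 with coding and noncoding reads only, when WNT2B (-2.15) and WNT5A (-0.76) turned. That setting cut the ICM reads alone and left I79 young whole. With WT as control the members under -0.6 were 5, when WNT5A (-0.96), WNT16 (-2.83), DKK1 (-0.074) and DKK3 (-0.76) turned. The causes were not tested. Low counts limit DKK2 and young WNT16.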
